A study of Homo sapiens with 21 samples.

Results

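V8, V17 and V22 are clones of the human glioblastoma line U-87MG, which has a mesenchymal look in culture, and each carries the empty vector and no parkin. The comparison described here sets V8 (3 arrays) against V17 (3 arrays) and V22 (3 arrays), 9 of the 21 arrays of the study, chosen by their titles and by the array series that the array names in the labels share. The other 12 arrays belong to a second array series, with the parkin-expressing clones PK7, PK19 and PK25 (3 arrays each) and V22 again (3 arrays). All 6 clones were stably transfected U-87MG cells, plated alike and collected after a day in culture without further treatment, and total RNA was hybridised to Affymetrix whole-transcript arrays. Each name stands for 1 clone, so the contrast is between single clones that differ in no labelled agent. The labels do not say whether the 3 arrays of a clone came from separate cultures, so the spread behind each p-value is that of arrays and may be technical.

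The genes described were the 18351 with a probe set of their own among the 26947 probe sets tested. For each gene the probe set with the highest mean over the 21 arrays was used, and no filter on low values was applied. Levels are log2 of the deposited intensity, and a difference is V8 minus the mean of V17 and V22 on that scale, so that 1 unit is 2-fold. A gene "passed" when its limma p, adjusted over all probe sets, was under 0.05, and was "called" when it also differed by at least 2-fold. Because the arrays measure whole cultures, fewer cells expressing a gene and less RNA per cell cannot be told apart.

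Clones of a tumour line descend from single cells of a population that is mixed in its chromosome content and in the state of its chromatin. A gain or loss of a chromosome arm shifts the RNA of many neighbouring genes by small amounts in the same direction. Silenced or reactivated loci give large changes of single genes or of clustered genes that share a control region. Genes for secreted cytokines, matrix enzymes and contractile proteins are among those that differ most between states of mesenchymal cells.

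The V8 arrays stood apart from the rest before any gene was tested. Over all probe sets the correlation was 0.9935 to 0.996 between a V17 and a V22 array, 0.9944 to 0.9956 within V17 and 0.9937 to 0.9958 within V22, against 0.9841 to 0.9904 between a V8 array and any of the other 6. The set 2 array of V8 (its replicate 2; set and replicate numbers are the same) also differed from the other V8 arrays, with correlations within V8 as low as 0.9897, and it received an array weight of 0.286. With all 9 arrays 135 probe sets were called higher (0.501%) and 108 lower (0.401%), by the rule above. Without that array, 131 were called higher and 89 lower, of which 114 and 82 were among those calls. Results that turned on it are given both ways. The markers of the line were checked: all 5 mesenchymal markers measured were above the array medians (VIM, CD44, FN1, CHI3L1 and TNC), as were both neural stem markers, and the astrocyte markers were below them (0 of 4), as were those of blood cells (0 of 5). Above the medians were also 1 of 3 oligodendrocyte markers (SOX10), 2 of 6 of endothelium (TEK and CLDN5), and 1 each of 5 of neurons (SNAP25), 5 of epithelium (KRT18) and 4 of skeletal muscle (TNNT3). The array means of these other lists lay between 5.41 and 5.94 in V8, against 5.38 and 5.89 in V17 and V22, all below the array medians.

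In V8, 119 genes were called higher (0.648% of all genes) and 88 lower (0.48%). The V8 arrays of 117 of the 119 lay above all 6 other arrays and those of 87 of the 88 lay below them; over all genes, 1672 (9.11%) lay above and 1964 (10.7%) below. At the adjusted p alone 1063 genes were higher in V8 (5.79%) and 1223 lower (6.66%). Taken against 1 clone at a time, V8 had 112 genes called higher (0.61%) and 87 lower (0.474%) against V17, and 127 higher (0.692%) and 88 lower (0.48%) against V22. A change of at least 4-fold was seen for 24 genes called higher and 10 called lower.

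V17 and V22, measured on the same 9 arrays, had no probe set with an adjusted p under 0.05 by limma. At an unadjusted p under 0.05 they had 850 probe sets (3.15%). The 99th percentile of the absolute difference over all probe sets was 0.98 for V8 against the other clones and 0.43 for V17 against V22. The genes with the smallest p between V17 and V22 were CCL4, a chemokine, OR4E2, an olfactory receptor, and CCDC167. CCL4 was at 2.97, 3.28 and 3.58 on the V17 arrays, against 4.43, 3.91 and 4.31 on the V22 arrays. Its V17 and V22 levels did not overlap, and all of them were near the bottom of the array's range. The other 2 genes differed by less than 1 unit as well.

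**Figure D1:**
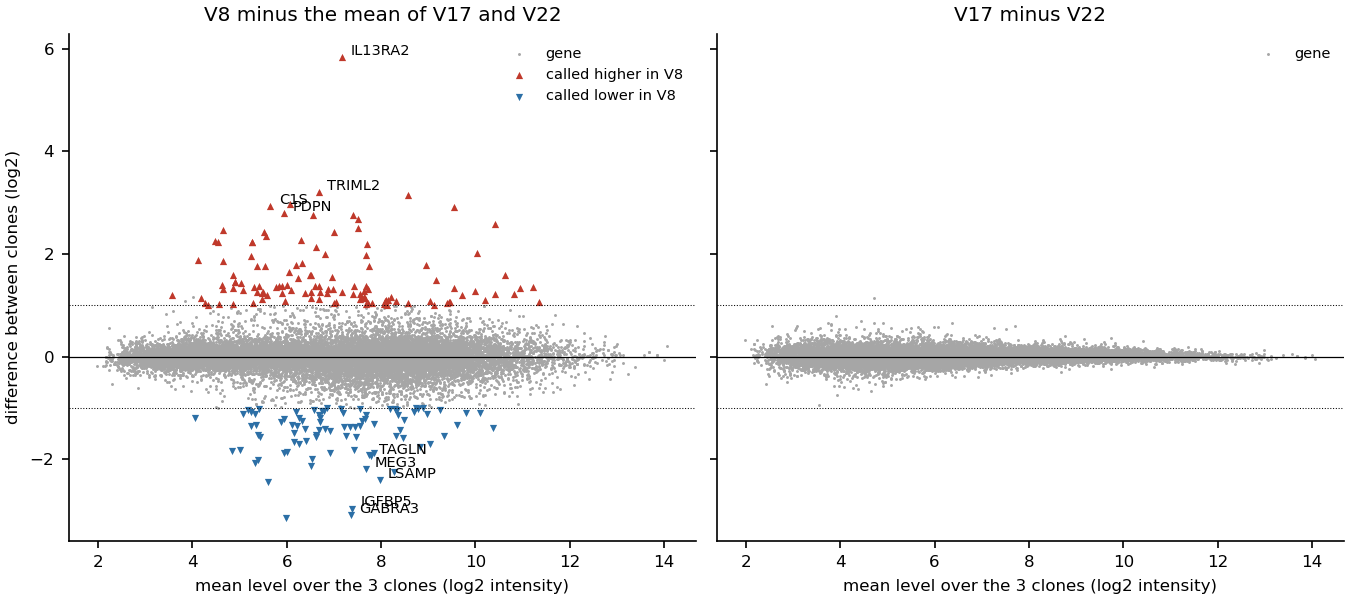
Each point is 1 of 18351 genes; the horizontal axis gives its mean level over the 3 clones (log2 intensity) and the vertical axis the difference between clones (log2), for V8 minus the mean of V17 and V22 on the left and V17 minus V22 on the right. Red triangles are the 119 genes called higher in V8 and blue triangles the 88 called lower; dotted lines mark 2-fold, and the cloud on the right stays close to 0.

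The gene that differed most was IL13RA2, on the X chromosome, which codes for a high-affinity receptor chain for interleukin 13 and is known as a glioma-associated antigen. It stood at 11.13, 11.04 and 11.04 on the V8 arrays, against 5.19, 5.37 and 5.14 on the V17 arrays and 5.15, 5.11 and 5.38 on the V22 arrays. V8 was therefore among the bright genes of the array while the other clones sat below the array medians, which lay between 6.213 and 6.372. The difference was 5.84 ± 0.09 (SE), or 57.4-fold (limma, adjusted p = 8.8e-11). In the second array series IL13RA2 averaged 10.61 in PK7, 9.48 in PK19 and 10.29 in PK25, against 5.02 in V22.

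Genes of inflammatory signalling were among the strongest changes. Of 49 cytokines, chemokines and their receptors measured, 11 passed higher in V8 (8 to 10 with each array left out in turn) and 4 lower. Of them 8 were called higher (5 without the set 2 array of V8) and none lower. Over all genes 5.79% passed higher, 6.66% passed lower and 0.648% were called higher. The median difference of the 49 was 0.12, against -0.007 over all genes. IL6 (0.99) missed the threshold in 7 of the 9 fits that left out 1 array and CCL2 (0.45) in 2. IL1B, which codes for interleukin 1 beta, a secreted initiator of inflammation, stood at 10.9, 12.27 and 11.28 on the V8 arrays, against 8.89, 8.49 and 8.52 in V17 and 8.88, 7.66 and 8.98 in V22. All V8 arrays were above all others, and the set 2 array was the highest of them. The difference was 2.91 ± 0.33, or 7.53-fold (adjusted p = 0.00035).

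CXCL8, the neutrophil-attracting chemokine interleukin 8, depended in size on 1 array. Its levels were 7.39, 10.28 and 7.49 in V8, against 5.32, 5.94 and 5.82 in V17 and 5.44, 5.88 and 5.44 in V22. The set 2 array of V8 was nearly 3 units above the other V8 arrays, which were themselves above every V17 and V22 array. The difference was 2.75 ± 0.52 (adjusted p = 0.0069) with all 9 arrays and 1.80 (adjusted p = 0.00073) without the set 2 array of V8. CXCL2, a related chemokine, behaved likewise, with 7.19, 8.51 and 6.92 in V8, against 5.69, 5.69 and 5.43 in V17 and 5.77, 5.7 and 5.96 in V22, a difference of 1.83 ± 0.28 (adjusted p = 0.0019).

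The remaining called members were IL1A, the cell-associated partner of interleukin 1 beta (1.13, but 0.89 and short of the call without the set 2 array of V8), CCL20, a chemokine for T cells and dendritic cells (1.01), IL7R, the interleukin 7 receptor (1.37), and LIF, a cytokine of the interleukin 6 family (1.29 ± 0.34, adjusted p = 0.033). LIF lost its call when the set 2 array of V8 was left out (0.86, adjusted p = 0.13) and when V17 replicate 1 or 3 or any 1 of the V22 arrays was left out, with differences of 1.24, 1.13, 1.27, 1.33 and 1.28. CCL20 was at 0.52 without the set 2 array of V8, and it missed the threshold without any 1 of the V17 or V22 arrays (0.95 to 1.05). IL6ST, the signalling chain shared by receptors of that family, passed at 0.90 (adjusted p = 0.0004). The members that passed lower did so by less: LIFR, the LIF receptor chain, at -0.67, IL11 at -0.57, TNFRSF11B, a decoy receptor for the bone-resorption ligand RANKL, at -0.52 (not without V8 replicate 1) and CSF1, the macrophage growth factor, at -0.48 (-0.13 after the running median of its neighbours on chromosome 1 was subtracted).

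Other genes of the same setting, named after their values were seen, were also called higher. TNFRSF9, a costimulatory receptor, differed by 2.00 ± 0.12, IL1RN, the natural antagonist of interleukin 1, by 1.25 ± 0.22 (0.86 without the set 2 array of V8, under the call), and TNFAIP3, a brake on NF-kB signalling, by 1.24 ± 0.18. PTGES, the prostaglandin E synthase that works downstream of cyclooxygenase, differed by 1.78 ± 0.19. SOD2, the mitochondrial superoxide dismutase, differed by 1.00 ± 0.17 and fell under the call without V8 replicate 2 (0.74), V17 replicate 1 (0.96), V17 replicate 3 (0.99) or V22 replicate 1 (0.97). BDKRB1, the inducible bradykinin receptor, was at 11.87, 12.69 and 11.84 in V8, against 9.76, 10.22 and 9.12 in V17 and 9.83, 8.99 and 9.34 in V22. Its V8 levels did not overlap with the rest, and the difference was 2.59 ± 0.27 (adjusted p = 0.00021).

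The promoters of CXCL8, CXCL2 and F3 are shown because they hold letters known from the AP-1 and NF-kB binding motifs; F3 codes for tissue factor, the initiator of clotting, and is described with the matrix genes. Each window is the 250 bases before the RefSeq gene start on GRCh38.p14, on the gene's strand, and capitals mark the matches to TGANTCA (AP-1) and GGANNTTCC (NF-kB), searched on both strands; no matches overlapped.
CXCL8, chr4:73740319-73740568, plus strand: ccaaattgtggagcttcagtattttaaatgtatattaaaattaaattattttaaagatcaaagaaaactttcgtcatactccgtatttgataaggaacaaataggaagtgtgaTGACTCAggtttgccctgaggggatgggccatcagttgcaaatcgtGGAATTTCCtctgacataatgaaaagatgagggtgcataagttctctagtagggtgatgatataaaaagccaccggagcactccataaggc
CXCL2, chr4:74099196-74099445, minus strand: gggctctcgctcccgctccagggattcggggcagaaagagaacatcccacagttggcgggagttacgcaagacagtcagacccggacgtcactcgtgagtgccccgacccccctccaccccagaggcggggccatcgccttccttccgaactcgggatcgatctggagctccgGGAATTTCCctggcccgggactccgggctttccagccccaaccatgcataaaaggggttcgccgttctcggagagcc
F3, chr1:94541760-94542009, minus strand: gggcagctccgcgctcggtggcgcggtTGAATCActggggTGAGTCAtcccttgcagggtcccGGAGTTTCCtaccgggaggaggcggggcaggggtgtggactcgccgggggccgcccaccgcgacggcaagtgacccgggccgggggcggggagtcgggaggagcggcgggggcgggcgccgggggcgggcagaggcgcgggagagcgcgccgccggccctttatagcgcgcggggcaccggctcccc
In CXCL8 the AP-1 letters began 137 bases before the start and the NF-kB letters 91 bases before it, in CXCL2 the NF-kB letters began 77 bases before it, and in F3 the AP-1 letters began 223 and 210 bases and the NF-kB letters 187 bases before it. Over all 35116 windows of this length, 6.57% held TGANTCA and 3.84% held GGANNTTCC. Counted by gene, at least 1 window held TGANTCA in 16 of the 87 genes called higher that had an entry (18.4%) and in 7 of the 61 called lower (11.5%), beside 1003 of 14190 genes with an entry (7.07%). GGANNTTCC was found in 7 of the 87 (8.05%) and 2 of the 61 (3.28%), beside 743 of 14190 (5.24%). A match is a stretch of letters and no measurement of binding, and these shares were not tested.

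Complement genes that passed were all higher in V8. Of 18 measured, 5 passed higher (C1R, C1S, C3, CD46 and CD55) and none lower, 3 were called, and the median difference was 0.24. Over all genes 5.79% passed higher, 6.66% passed lower and 0.648% were called higher. CD46, at 0.29, missed the threshold in 7 of the 9 fits that left out 1 array. C3, the central component cleaved by every complement route, stood at 7.58, 9.12 and 7.42 in V8, against 5.0, 5.5 and 4.83 in V17 and 5.16, 5.19 and 4.76 in V22. C1S, a protease of the first complement component, stood at 7.55, 7.56 and 7.7 in V8, against 4.52, 5.07 and 5.1 in V17 and 4.8, 4.37 and 4.18 in V22. Neither gene's V8 arrays overlapped with the others, and C1S was even over the V8 arrays where C3 was highest on set 2. The differences were 2.97 ± 0.32 for C3 (adjusted p = 0.00029; 2.43 without the set 2 array of V8) and 2.93 ± 0.16 for C1S (adjusted p = 3.1e-06). C1R, the partner protease, differed by 1.14 ± 0.09. C1R and C1S lie on the short arm of chromosome 12 within a stretch of genes that was higher throughout in V8 and is described with the chromosomes; after the running median of their neighbours was subtracted they differed by 0.65 and 2.44.

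**Figure D2:**
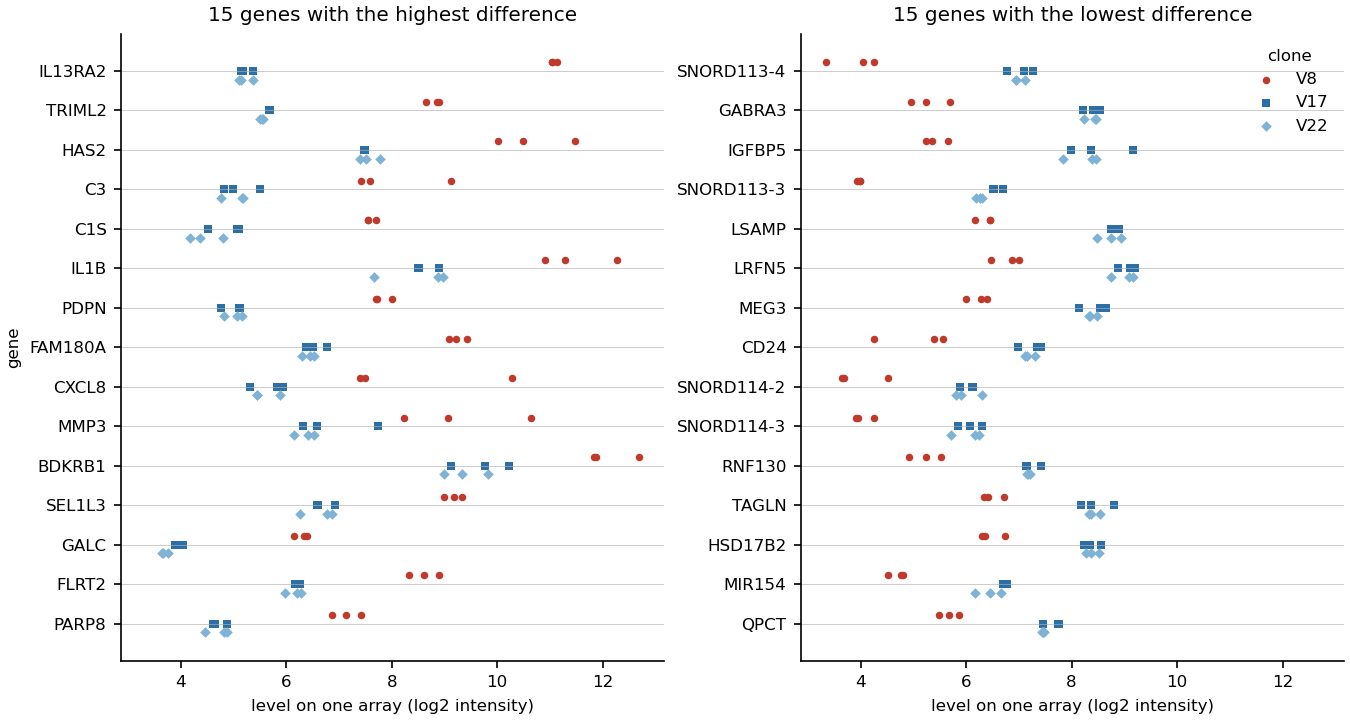
Levels of the 15 genes with the highest (left) and the 15 with the lowest (right) difference on each of the 9 arrays (log2 intensity); red circles are V8, dark blue squares V17 and light blue diamonds V22. The genes were chosen with the V8 arrays beyond all 6 others, so the V8 points lie apart in every row. In HAS2, C3, CXCL8 and MMP3 1 V8 array lies well above the other 2.

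Matrix genes moved in both directions, where 5.79% of all genes passed higher and 6.66% lower. Of 28 matrix proteases and inhibitors, 5 passed higher (MMP1, MMP3, TIMP4, ADAMTS6 and PLAU) and 1 lower (TIMP2), with a median of 0.04. TIMP4 missed the threshold in 6 of the 9 fits that left out 1 array and TIMP2 in 4; the number passing lower was 0 without V17 replicate 3, V22 replicate 1 or V22 replicate 3, and 2 without V8 replicate 3, V17 replicate 2 or V22 replicate 2. MMP3, a protease that cuts many matrix proteins and activates others of its family, was at 9.06, 10.64 and 8.23 in V8, against 6.32, 7.75 and 6.59 in V17 and 6.52, 6.14 and 6.41 in V22. Its lowest V8 array was above its highest V17 array by less than 1 unit, and the difference of 2.69 ± 0.45 (adjusted p = 0.0034) was 2.02 without the set 2 array of V8. MMP1, the interstitial collagenase next to it on chromosome 11, differed by 1.98 ± 0.26 (adjusted p = 0.00091), ADAMTS6 by 1.54 ± 0.22, and PLAU, the urokinase plasminogen activator, by 0.63. HAS2, which makes the matrix polysaccharide hyaluronan, was at 10.02, 11.48 and 10.48 in V8, against 7.47, 7.5 and 7.48 in V17 and 7.39, 7.52 and 7.77 in V22. All V8 arrays were above the others, with a difference of 3.14 ± 0.25, or 8.82-fold (adjusted p = 3.4e-05).

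Among 36 matrix glycoproteins and proteoglycans, 6 passed higher and 5 lower, and the median was 0.02. For these and the collagens below, the shares over all genes were 5.79% higher and 6.66% lower. The small leucine-rich proteoglycans LUM (lumican) and DCN (decorin), neighbours on chromosome 12 that bind collagen fibrils, were the called members. LUM was at 6.29, 7.44 and 6.53 in V8, against 4.36, 4.45 and 4.66 in V17 and 4.75, 4.18 and 4.74 in V22, a difference of 2.23 ± 0.23 (adjusted p = 0.00019). Its V8 arrays were above all others. DCN differed by 1.15 ± 0.20 (adjusted p = 0.004) and fell under the call without the set 2 array of V8 (0.86), which left 1 called member, and it was at 0.68 after its neighbours' running median was subtracted. FBN1, the main fibrillin, passed higher at 0.55, while FBN2, the fibrillin of developing tissue, passed lower at -0.86, as did EFEMP1, an elastic fibre glycoprotein, at -0.80. Of 28 collagens, 2 passed higher and 4 lower, with none called; the 4 became 1 without V8 replicate 2, V17 replicate 1 or V17 replicate 3, and 2 without V22 replicate 2 or 3. COL12A1, a collagen that decorates fibrils, had the smallest p, with a difference of 0.91 ± 0.10.

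Receptors and cross-linkers of the matrix differed gene by gene. Of 25 integrins and laminins, 6 passed higher and 3 lower (1 without the set 2 array of V8), where 5.79% of all genes passed higher and 6.66% lower. LAMA4, a laminin chain of vessel and muscle basement membranes, was called higher at 1.33 ± 0.17 (adjusted p = 0.00065). ITGA10, a collagen-binding integrin chain, was called lower at -1.37 ± 0.31 (adjusted p = 0.018), a call lost without the set 2 array of V8 (-1.13, adjusted p = 0.092). LOX, the lysyl oxidase that cross-links collagen and a known target of hypoxia-inducible factor, was at 11.61, 11.59 and 11.83 in V8, against 9.63, 10.25 and 10.35 in V17 and 9.71, 10.53 and 10.13 in V22. The V8 arrays were more than 1 unit above all others and the difference was 1.58 ± 0.19 (adjusted p = 0.00051). F3, tissue factor, a listed target of YAP and TEAD, differed by 1.21 ± 0.20 (adjusted p = 0.003) and by 0.90 without the set 2 array of V8. PDPN (podoplanin), a mucin-type membrane protein of invasive mesenchymal cells, differed by 2.80 ± 0.12, with 7.72, 8.0 and 7.7 in V8, against 5.12, 5.1 and 4.77 in V17 and 4.83, 5.16 and 5.06 in V22.

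Many contractile genes passed lower in V8. Of 25 smooth muscle contractile genes, 12 passed lower (9 to 11 with each array left out in turn), 1 passed higher and 12 did not pass, where 6.66% of all genes passed lower, and the median difference was -0.28. TAGLN (transgelin), an actin-binding marker of contractile cells, was at 6.33, 6.41 and 6.71 in V8, against 8.17, 8.36 and 8.8 in V17 and 8.37, 8.53 and 8.32 in V22. ACTG2, the enteric smooth muscle actin, was at 6.93, 7.77 and 7.5 in V8, against 8.72, 9.44 and 8.82 in V17 and 8.83, 9.12 and 9.01 in V22. Both genes were below every other array on all V8 arrays, by -1.94 ± 0.14 for TAGLN (adjusted p = 1.8e-05) and -1.59 ± 0.20 for ACTG2 (adjusted p = 0.00057). ACTA2, smooth muscle alpha actin, passed lower at -0.69, MYLK, the kinase of the myosin light chain, at -0.84, CALD1 (caldesmon) at -0.49 and SRF, the transcription factor that drives many of these genes, at -0.49; SRF lies in a lower stretch of chromosome 6 and was at 0.03 after the running median of its neighbours was subtracted. ACTN1 and VCL, which link actin to adhesions, passed lower at -0.29 and -0.28 but missed the threshold in 8 and 6 of the 9 fits that left out 1 array. CNN1 (calponin) went the other way at 0.42 but passed in only 2 of the 9 fits that left out 1 array, those without V8 replicate 1 or V22 replicate 3, and MYL9, the regulatory myosin light chain, was at 0.08 (adjusted p = 0.65).

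Some genes of the nervous system and of cell adhesion were called lower. Of 27 cadherins and neural cell adhesion molecules, 3 passed lower and 1 higher, with a median of -0.03. Of 23 glutamate and GABA receptors 2 passed lower (4 without V17 replicate 2) and none higher, with a median of -0.04. Over all genes 6.66% passed lower and 5.79% higher, and the 2 of 23 are near that share. Called lower were 3 of the 27 (2 without the set 2 array of V8) and 1 of the 23, where 0.48% of all genes were. GABRA3, a chloride channel subunit of the GABA-A receptor on the X chromosome, was at 5.7, 4.96 and 5.24 in V8, against 8.4, 8.22 and 8.53 in V17 and 8.46, 8.23 and 8.44 in V22. LSAMP, a surface protein of limbic neurons, was at 6.46, 6.46 and 6.16 in V8, against 8.83, 8.9 and 8.75 in V17 and 8.93, 8.48 and 8.74 in V22. In both genes the highest V8 array was at least 2 units below the lowest of the others. They differed by -3.08 ± 0.15 (adjusted p = 1.1e-06) and -2.41 ± 0.11 (adjusted p = 1e-06). LRFN5, a synaptic adhesion protein, differed by -2.25 ± 0.14, and CHL1, a neural cell adhesion molecule of the L1 family, by -1.22 ± 0.12. MCAM, an adhesion molecule of vessel and melanoma cells, differed by -1.05 ± 0.10 and by -0.94 without the set 2 array of V8.

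Of 39 axon guidance genes measured, 8 passed lower and 2 higher (1 without V8 replicate 3, V17 replicate 1 or V22 replicate 3), with a median of 0.00; 6.66% of all genes passed lower and 5.79% higher, and the 2 of 39 are near that share. The semaphorin receptors PLXNA4 and PLXNA2 and the ephrin EFNB2 were called lower, at -1.87 ± 0.13, -1.06 ± 0.15 and -1.04 ± 0.08. EFNB2 lies in a lower stretch of chromosome 13 and was at -0.44 after its neighbours' running median was subtracted. PLXNA2 fell short of 2-fold without the set 2 array of V8 (-0.92) or without V17 replicate 3 (-0.97). NRP1, the coreceptor for semaphorins and vascular growth factors, passed higher at 0.58 (0.25 after its neighbours on chromosome 10 were subtracted). Of 19 astrocyte and neural stem markers, 5 passed lower (SLC1A3, NES, SOX2, SOX9 and FABP7) and 1 higher (NOTCH1, not without V8 replicate 1 or 3); FABP7 missed the threshold without any 1 of the V8 arrays, V17 replicate 1 or V22 replicate 3. SLC1A3, the glial glutamate transporter, was at 7.66, 7.76 and 7.58 in V8, against 8.69, 9.05 and 8.83 in V17 and 8.85, 9.17 and 8.79 in V22, with no overlap and a difference of -1.23 ± 0.11 (adjusted p = 8.8e-05). NES (nestin) and SOX2, which mark neural stem cells, were at -0.70 and -0.86, while GFAP, the filament of mature astrocytes, was close to the array medians in all 3 clones and at -0.10 (adjusted p = 0.57). Of 27 HOX genes, HOXD9, HOXD10, HOXD11 and HOXD13, neighbours on chromosome 2, passed lower by up to -0.82 (HOXD10) and HOXC8 passed higher at 0.85; HOXD9 missed the threshold in each of the 9 fits that left out 1 array, and 2 genes passed higher without V8 replicate 1 or 2.

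Among 38 growth factor ligands and receptor tyrosine kinases, 2 passed higher and 7 lower (4 without V8 replicate 1, V8 replicate 3, V22 replicate 1 or V22 replicate 3), with a median of -0.06. Of all genes 5.79% passed higher and 6.66% lower, and the 2 of 38 are near that share. EREG (epiregulin), a ligand of the epidermal growth factor receptor, was at 12.11, 12.48 and 11.81 in V8, against 10.92, 10.66 and 10.94 in V17 and 10.87, 10.51 and 10.74 in V22, a difference of 1.36 ± 0.14 (adjusted p = 0.00025). The V8 arrays were above all others. KDR, the main receptor for vascular endothelial growth factor, differed by -1.07 ± 0.13 and by -0.98 without V17 replicate 3; the endothelial markers CDH5 and VWF did not pass, at 0.04 and 0.09. GAS6, the ligand of the AXL receptor family, differed by -1.06 ± 0.11, by -0.98 without the set 2 array of V8, and by -0.39 after its neighbours' running median was subtracted. IGFBP5, a secreted binding protein for insulin-like growth factors, was at 5.23, 5.65 and 5.35 in V8, against 8.37, 9.16 and 7.99 in V17 and 8.38, 7.83 and 8.46 in V22. Its V8 arrays were more than 2 units below all others, with a difference of -2.96 ± 0.23, or 7.76-fold lower (adjusted p = 3.4e-05). In the second array series V22 itself averaged 6.65 for IGFBP5, which lies above the V8 arrays by 1 unit or more.

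Of 26 TGF-beta and SMAD targets, 3 passed higher and 6 lower, where 5.79% of all genes passed higher and 6.66% lower. The called ones on the higher side included GREM1 (1.22 ± 0.12) and BAMBI (1.37 ± 0.23), both of which restrain signalling by the TGF-beta family. TGFBI, a secreted matrix protein, was called at 1.07 ± 0.23 (adjusted p = 0.014) but lost the call without V8 replicate 1 (0.92), V8 replicate 3 (0.95), V17 replicate 1 (0.95) or V22 replicate 1 (0.99). SMAD7, ID2 and PMEPA1 passed lower at -0.36, -0.44 and -0.83; SMAD7 missed the threshold without V8 replicate 2 or 3 or any 1 of the V17 arrays, and PMEPA1 without any 1 of the V8 arrays. CHI3L1, a chitinase-like secreted protein that marks mesenchymal glioblastoma, was called lower at -1.33 ± 0.20 (adjusted p = 0.0017) with the 9 arrays of the first series and missed the threshold when all 21 arrays were fitted together (adjusted p = 0.097). CD44, the hyaluronan receptor and another marker of that subtype, passed higher at 0.63.

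Glycolysis, hypoxia and NRF2 lists held genes that passed higher and none that passed lower, with medians of 0.16, 0.04 and 0.18. The shares over all genes were 5.79% higher and 6.66% lower. The 2 of 27 hypoxia targets that passed higher are near that share, and none lower in lists this small is little different from it. After the running median of neighbours was subtracted, the list medians were 0.06, 0.06 and 0.17. Lists of cholesterol synthesis and oxidative phosphorylation genes had medians of -0.13 and -0.01 and are given among the other observations. Of 20 glycolysis genes, 5 passed higher (3 without V8 replicate 3) and none lower (1 without V8 replicate 3 or V17 replicate 2), led in size by ENO2, an enolase (0.99 ± 0.16), and including PFKM (0.66), PFKP (0.51), LDHB (0.46) and GPI (0.44). ENO2 and LDHB lie in a higher run of chromosome 12 and PFKP in that of chromosome 10, and after subtraction of their neighbours they were at 0.51, -0.24 and 0.19; PFKM on chromosome 12 and GPI lie in no run and were at 0.52 and 0.44. PFKP missed the threshold without V8 replicate 1 or 3, and GPI without V8 replicate 3. Of 27 targets of hypoxia-inducible factor, only LOX and the glucose transporter SLC2A3 passed, SLC2A3 at 1.27 ± 0.19 and at 0.77 after subtraction of its neighbours. Of 23 NRF2 targets, 4 passed higher (2 without V22 replicate 3) and none lower: ABCC2, an organic anion export pump, at 1.21 ± 0.16, TXNRD1 (thioredoxin reductase) at 0.80 (0.44 after subtraction), AKR1C2 at 0.80 (0.53) and SLC7A11, the cystine importer, at 1.77 ± 0.43 (adjusted p = 0.024). AKR1C2 missed the threshold without any 1 of the V8 arrays or without V22 replicate 2 or 3. SLC7A11 varied widely within each clone, with 9.82, 8.65 and 8.33 in V8, against 6.98, 6.04 and 8.05 in V17 and 7.0, 7.92 and 6.97 in V22. Its call was lost without V8 replicate 1 (1.33, adjusted p = 0.1), V8 replicate 2 (1.91, adjusted p = 0.062), V17 replicate 1 (1.76), V22 replicate 1 (1.70) or V22 replicate 3 (1.69).

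Of 23 p53 targets, 7 passed higher (4 without V8 replicate 1) and none lower, where 5.79% of all genes passed higher and 6.66% lower. SPATA18, a regulator of mitochondrial quality, was at 6.5, 7.16 and 6.48 in V8, against 4.7, 4.86 and 4.85 in V17 and 4.81, 5.32 and 5.14 in V22. All V8 arrays were above the others and the difference was 1.77 ± 0.16 (adjusted p = 9.2e-05). TIGAR, a brake on glycolysis on chromosome 12, differed by 1.14 ± 0.10 (0.74 after subtraction of its neighbours), RRM2B, a ribonucleotide reductase subunit, by 0.65, TNFRSF10B, a death receptor, by 0.57, and MDM2, the ubiquitin ligase of p53, by 0.34 (0.12 after subtraction), which missed the threshold in 7 of the 9 fits that left out 1 array. Proliferation lists moved little: of 38 mitosis genes 1 passed lower (TTK, -0.52, adjusted p = 0.048, past the threshold in 1 of the 9 fits that left out 1 array) and none higher, with 0 to 2 lower over those fits. Of 39 DNA replication genes 5 passed lower, led by MCM3 (-0.59, and -0.21 after its neighbours on chromosome 6 were subtracted), and 1 higher. The 5 became 2 without V8 replicate 2 or V22 replicate 1 and 1 without V17 replicate 1, V17 replicate 3 or V22 replicate 3, and the number higher was 0 without V8 replicate 2 or 3 and 2 without V17 replicate 3.

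**Figure D3:**
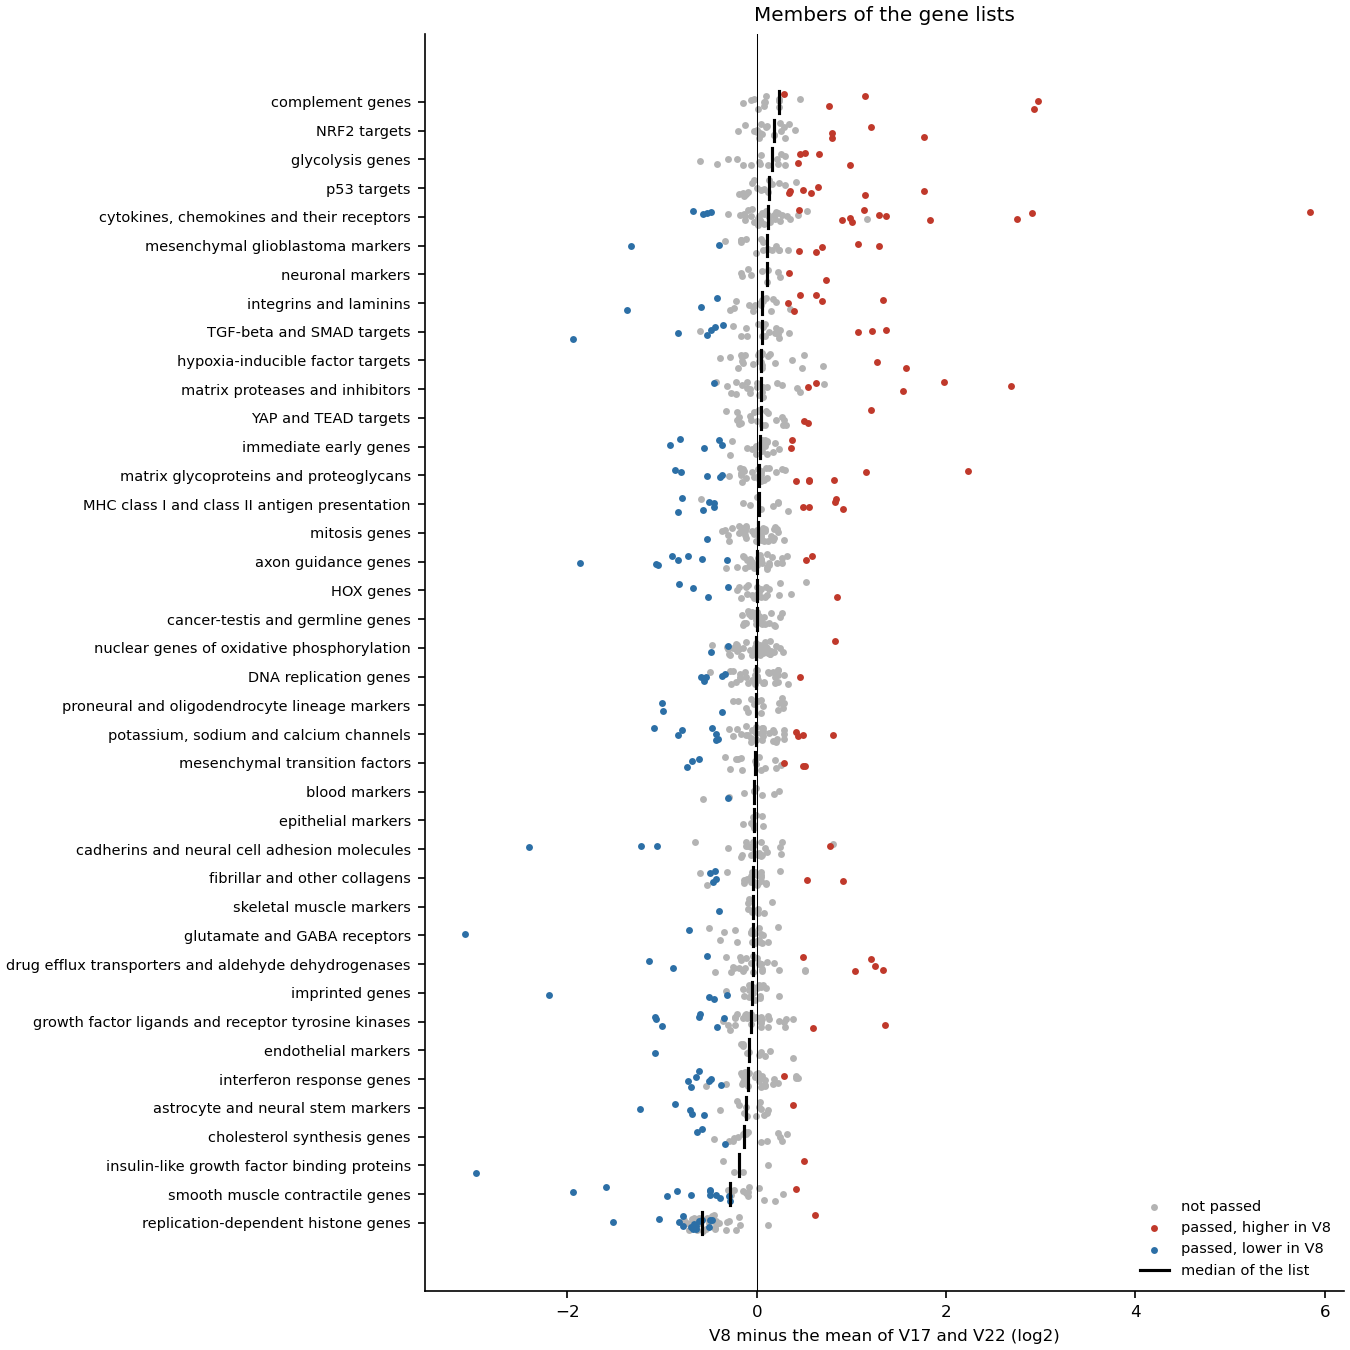
Difference of V8 minus the mean of V17 and V22 (log2) for the measured members of 40 gene lists, ordered by the list median (black bar); red points passed higher in V8, blue points passed lower and grey points did not pass. The complement list has the highest median at 0.24 and the histone list the lowest at -0.58, and IL13RA2 at 5.84 is the point farthest to the right.

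A compact group of lower genes was the imprinted noncoding cluster on the long arm of chromosome 14, between DLK1 and DIO3. This region is expressed from the maternal chromosome as the long noncoding RNA MEG3, arrays of C/D box small nucleolar RNAs and a large group of microRNAs, and it is known to be shut off in many tumours. Of 25 genes measured there, 16 passed lower and 9 were called lower, none passed higher, and the median was -0.64. Over all genes 6.66% passed lower and 0.48% were called lower. MEG3 was at 6.4, 5.99 and 6.28 in V8, against 8.54, 8.14 and 8.66 in V17 and 8.49, 8.35 and 8.32 in V22. Its V8 arrays were more than 1 unit below the lowest of the others, and the difference was -2.19 ± 0.13, or 4.58-fold lower (adjusted p = 5.1e-06). In the second array series MEG3 varied between the arrays of a clone. It was at 6.4, 8.57 and 6.01 in PK7, 7.37, 8.77 and 7.32 in PK19 and 7.26, 8.34 and 7.49 in PK25. V22 stood there at 7.86, 8.86 and 7.52. The set 2 array was the highest of each parkin clone, and PK7 sets 1 and 3 were near the V8 levels.

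All 6 small nucleolar RNA genes of the SNORD113 and SNORD114 arrays were called lower, with a median of -2.05 and a range of -3.14 to -1.05. SNORD113-4 was at 4.05, 3.34 and 4.26 in V8, against 7.09, 6.77 and 7.27 in V17 and 6.94, 6.95 and 7.12 in V22, a difference of -3.14 ± 0.18 (adjusted p = 4.9e-06). On the second-series arrays SNORD113-4 was at 2.86, 5.97 and 3.51 in PK7 and 4.93, 6.69 and 5.42 in PK19. PK25 was at 4.68, 6.59 and 3.39 for SNORD113-4, against 6.03, 7.89 and 6.17 in V22. Its V8 levels, like those of SNORD113-3, are near the dimmest of the array, where differences are compressed, so no fold is given. SNORD113-3 was at 3.94, 3.99 and 3.98 in V8, against 6.53, 6.51 and 6.7 in V17 and 6.3, 6.27 and 6.19 in V22. The copies of these arrays are close in sequence, so that a probe set may read more than 1 of them. Not all genes of the region passed. DIO3OS, an antisense transcript beside DIO3, was at 0.00 (adjusted p = 0.99), and RTL1, the retrotransposon-derived gene read from the paternal chromosome, was at -0.32 (adjusted p = 0.18), while MIR127, which is read antisense to RTL1, passed lower at -0.65.

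Of 16 microRNA genes in the cluster, 9 passed lower, none passed higher, and the median was -0.56; among those that did not pass were MIR494 (-0.15), MIR412 (-0.15) and MIR495 (-0.02). MIR154 was at 4.81, 4.52 and 4.77 in V8, against 6.78, 6.71 and 6.69 in V17 and 6.67, 6.46 and 6.16 in V22 (-1.88 ± 0.11, adjusted p = 6.4e-06). MIR382, named after its values were seen, was at 3.99, 3.68 and 3.76 in V8, against 5.71, 5.7 and 5.76 in V17 and 5.95, 5.63 and 4.99 in V22 (-1.81 ± 0.17, adjusted p = 0.00013). These were the called microRNA genes of the cluster, and neither overlapped between V8 and the other clones. The arrays were hybridised with total RNA made into long complementary DNA, so the values refer to the precursor locus and not to the mature products. The mature sequences of both are given because they are what such a locus would deliver to its targets; they come from RefSeq (GRCh38.p14, chromosome 14, plus strand), and capitals mark the seed, bases 2 to 8 from the 5′ end.
hsa-miR-154-5p: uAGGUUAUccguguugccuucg
hsa-miR-154-3p: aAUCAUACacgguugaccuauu
hsa-miR-382-5p: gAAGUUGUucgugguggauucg
hsa-miR-382-3p: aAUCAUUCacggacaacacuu
The 4 seeds are all different, although the 3p arms of both genes open with the same letters.

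Levels along the chromosomes showed broad shifts in V8. When the 11375 genes above a mean level of 6 were put in RefSeq order and a running median over 31 neighbours was taken, 8 runs of at least 20 genes lay beyond 0.25 in V8, and none did for V17 minus V22. The runs held 904 genes (7.95%). The longest covered the short arm of chromosome 6 from DUSP22 to LRRC1, with 328 genes, of which 304 (92.7%) were lower in V8, and a median of -0.48. The lowest covered the end of the long arm of chromosome 13 from TDRD3 to CHAMP1, with 74 genes and a median of -0.70. The other lower runs were PLPPR4 to PIAS3 on chromosome 1 (95 genes, -0.36) and ZNF581 to CENPBD2P on chromosome 19 (48 genes, -0.39).

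The runs that were higher in V8 lay on chromosomes 10 and 12. On chromosome 10 the run from ZMYND11 to FZD8 held 84 genes with a median of 0.36. On chromosome 12 there were 3, from IQSEC3 to RACGAP1P1 (152 genes, 0.49), from YEATS4 to TMEM263 (85 genes, 0.41) and from UBE3B to PLBD2 (38 genes, 0.30). Within every run the medians of V17 minus V22 lay between -0.01 and 0.06. Each V8 array showed every run: for chromosome 13 the medians were -0.63, -0.66 and -0.70 on V8 sets 1, 2 and 3, and for the first run of chromosome 12 they were 0.51, 0.53 and 0.45. These are RNA levels of neighbouring genes, and DNA copy number was not analysed here.

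**Figure D4:**
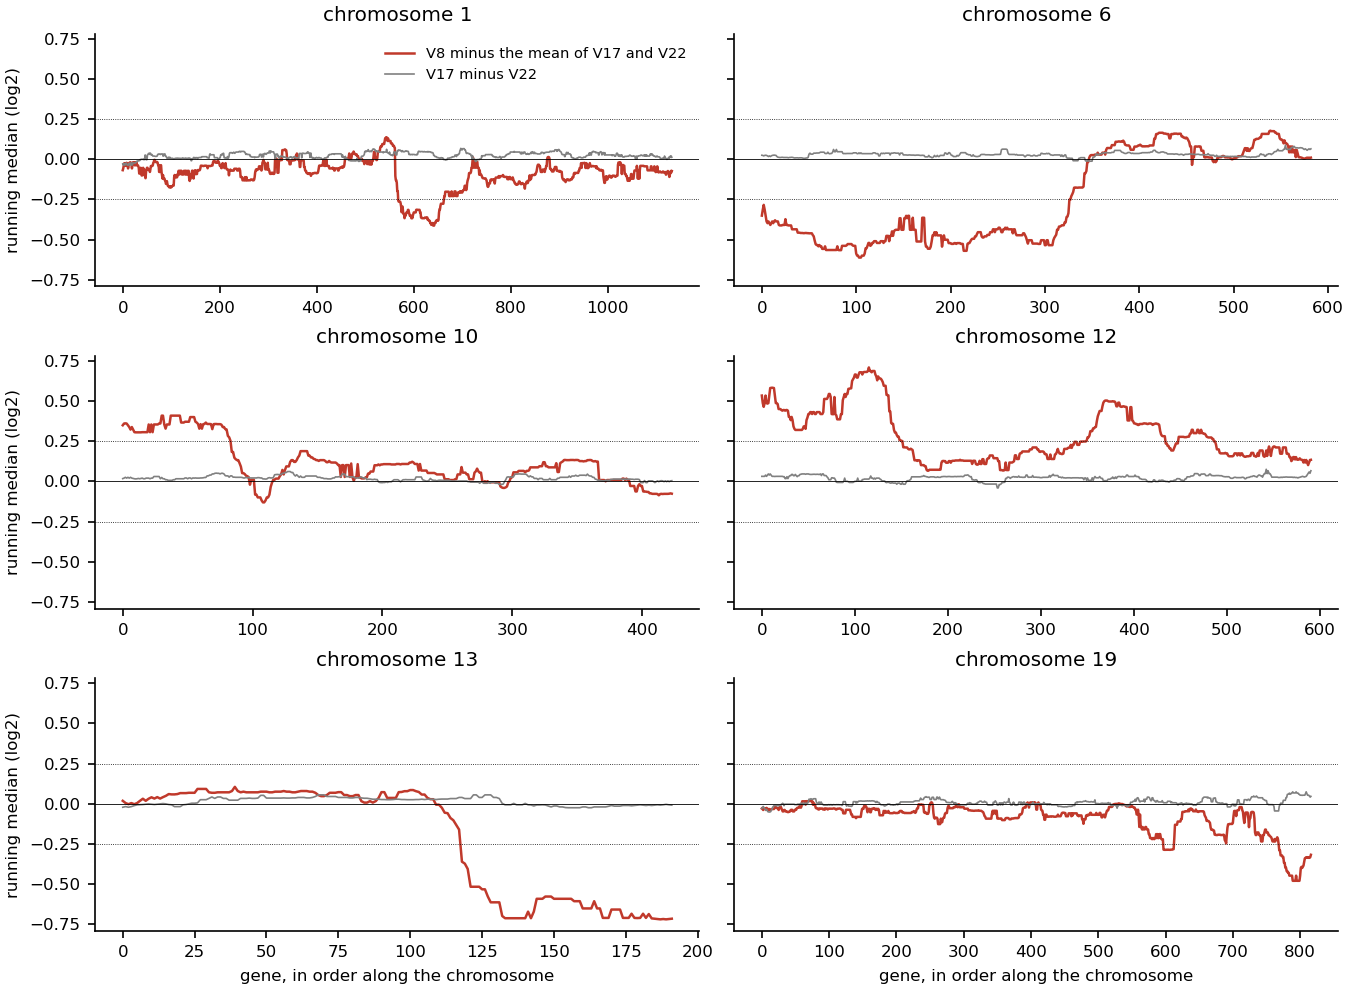
Running median over 31 neighbouring genes (log2) of V8 minus the mean of V17 and V22 (red) and of V17 minus V22 (grey), along the gene order of the 6 chromosomes that hold runs. Dotted lines mark 0.25 in either direction; V8 leaves that band over the short arm of chromosome 6 and the end of chromosome 13, which are lower, and over parts of chromosomes 10 and 12, which are higher.

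Called genes lay partly inside the runs of their own direction, 20 of 119 called higher and 20 of 88 called lower. A further 1 called higher and 2 called lower lay inside runs of the other direction. Runs of both directions together spanned 8.45% of the genes described, so the runs of either direction alone spanned less than that. Outside all runs 98 genes were called higher and 66 lower. Chromosome 12 held 24 genes called higher (2.45% of its genes), against 0.648% over all genes. Chromosome 13 held 10 called lower (3.16%) and chromosome 14 held 14 (2.39%), against 0.48% over all genes. Of those 14, 9 belong to the imprinted cluster between DLK1 and DIO3, and no run lay on chromosome 14. DUSP22, a phosphatase at the tip of chromosome 6, was at 6.15, 5.88 and 5.83 in V8, against 7.47, 7.39 and 7.37 in V17 and 7.41, 7.29 and 7.46 in V22, a difference of -1.45 ± 0.09 (adjusted p = 7.6e-06). KCNMB4, a subunit of calcium-activated potassium channels, lay inside a higher run of chromosome 12 but was called lower, at -1.09 ± 0.11, or -1.41 below its neighbours. CD9, a tetraspanin on the same chromosome named after its values were seen, was called higher at 2.01 ± 0.14.

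Of all genes 6.66% passed lower and 5.79% higher. Replication-dependent histone genes and antigen presentation genes were read beside the chromosome 6 run. All 45 histone genes measured lay within its span; 15 passed lower and 1 higher (H1-1, 0.62, not without any 1 of the V8 arrays), and their median was -0.58. Without its 41 histone genes the run still had a median of -0.46 over 287 genes, and after the running median of neighbours was subtracted the histone median was -0.05, although 15 to 26 of the 31 genes in those windows were listed histones themselves. The number passing lower was 6 and the median -0.32 without the set 2 array of V8, and the number was 7 without V17 replicate 1, V17 replicate 3, V22 replicate 1 or V22 replicate 3. H2AC14 was called lower at -1.52 ± 0.27, and H2BC12 at -1.03 ± 0.15 (-0.52 after subtraction), which lost its call without V8 replicate 3 (-0.83), V17 replicate 1 (-0.99) or V22 replicate 1 (-1.0). Histone genes are near-identical copies that share probes, so single members are uncertain. Of 20 antigen presentation genes, 14 lay in runs, 6 passed lower and 5 higher (3 higher without V8 replicate 3); PSMB9 and PSMB8, subunits of the immunoproteasome, passed lower at -0.83 and -0.79, as did the peptide transporters TAP1 (-0.45) and TAP2 (-0.57), these 4 being at -0.38, -0.33, 0.0 and -0.11 after subtraction of their neighbours, while the class II genes HLA-DPB1, HLA-DQA1 and HLA-DQB1 passed higher at 0.49, 0.84 and 0.83. HLA-DQB1 missed the threshold in 7 of the 9 fits that left out 1 array, TAP2 in 3 and HLA-DPB1 in 2.

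Zinc finger genes were counted on chromosome 19, where many of them stand in clusters, and elsewhere. Of 237 ZNF genes measured on chromosome 19, 35 passed lower (14.8%) and 7 higher (2.95%), and of 256 on other chromosomes 13 passed lower (5.08%) and 11 higher (4.3%), where 6.66% of all genes passed lower and 5.79% higher; the medians were -0.04 and -0.02, and the difference between the chromosomes was not tested. The lower run from ZNF581 to CENPBD2P spans 53 of the 237, of which 20 passed lower, and of the 184 outside it 15 did (8.15%). The 13 became 5 without V8 replicate 1, 7 without V8 replicate 3 or V22 replicate 3 and 8 without V17 replicate 1. Chosen after their values were seen, ZNF558, ZNF302 and ZNF266 were called lower at -1.71 ± 0.13, -1.55 ± 0.11 and -1.53 ± 0.13. ZNF300 on chromosome 5 was called higher at 1.86 ± 0.13. Olfactory receptor genes, which such cells do not normally use, gave 3 of 359 that passed lower and none higher, and 0 to 4 lower and 0 to 3 higher with each array left out in turn.

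Of 35 drug efflux transporters and aldehyde dehydrogenases, 4 were called higher and 1 lower (0 lower without the set 2 array of V8). Over all genes 0.648% were called higher and 0.48% lower. At the adjusted p alone 5 passed higher and 3 lower, where 5.79% of all genes passed higher and 6.66% lower, and the 3 of 35 are near that share. ABCC4 and GSTM2 passed lower at -0.88 and -0.53, lie in lower runs and were each at -0.17 after their neighbours' running median was subtracted. ALDH1A3, which makes retinoic acid from retinal and marks mesenchymal glioma cells, was at 11.97, 11.75 and 11.78 in V8, against 10.47, 10.39 and 10.67 in V17 and 10.49, 10.45 and 10.56 in V22. The V8 arrays were above all others, with a difference of 1.33 ± 0.09 (adjusted p = 1.4e-05), while a second, dimmer probe set of the gene was at -0.13. ALDH1L2, a mitochondrial enzyme of folate metabolism in a higher run of chromosome 12, differed by 1.25 ± 0.10 (0.90 after subtraction of its neighbours), and ABCG2, an efflux pump, by 1.04 ± 0.18, which fell short of 2-fold without V8 replicate 3 (0.94), V17 replicate 2 (0.94) or V22 replicate 2 (0.95). GSTM4, a glutathione transferase on chromosome 1, was called lower at -1.14 ± 0.17 and fell short of 2-fold without the set 2 array of V8 (-0.94); it lies in the lower run of chromosome 1 and was at -0.79 after subtraction of its neighbours.

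Several strongly changed genes belong to none of these lists. TRIML2, a tripartite-motif family gene on chromosome 4, was at 8.9, 8.86 and 8.65 in V8, against 5.67, 5.67 and 5.69 in V17 and 5.5, 5.57 and 5.55 in V22, a difference of 3.20 ± 0.08 (adjusted p = 7.6e-09). It was even over the V8 arrays and stayed near the level of the other vector clones in the parkin clones, at 5.77 in PK7, 5.33 in PK19 and 5.71 in PK25, against 5.47 in V22. FAM180A was at 9.09, 9.43 and 9.22 in V8, against 6.78, 6.38 and 6.5 in V17 and 6.52, 6.3 and 6.46 in V22 (2.76 ± 0.11, adjusted p = 4.3e-07). GALC, the lysosomal galactosylceramidase, differed by 2.46 ± 0.08, SEL1L3 by 2.50 ± 0.14, PARP8, a mono-ADP-ribosyltransferase, by 2.42 ± 0.14, and FLRT2, a leucine-rich adhesion and guidance protein, by 2.42 ± 0.12. Among the lowest, CD24, a small sialylated surface protein, was at 5.57, 4.26 and 5.4 in V8, against 7.35, 6.99 and 7.42 in V17 and 7.3, 7.11 and 7.16 in V22 (-2.14 ± 0.24, adjusted p = 0.00035). RNF130, a ubiquitin ligase, HSD17B2, which oxidises sex steroids, and QPCT, which forms pyroglutamate on peptide ends, differed by -1.99 ± 0.12, -1.91 ± 0.12 and -1.88 ± 0.10.

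The same genes were read in the second array series, where PK7, PK19 and PK25 were each set against V22. V22 is in both comparisons through different arrays, so counts are given for V8 against V17, whose difference shares no clone with them. This does not remove what V17 and V22 have in common, as no probe set differed between them at an adjusted p under 0.05. The V22 arrays of the first series also entered the variance of that fit. Of the 112 genes called higher against V17, 65 were called higher in PK7 (1.79% of all genes were), 55 in PK19 (1.84%) and 9 in PK25 (0.0872%). Of the 87 called lower against V17, 35 were called lower in PK7 (1.06%), 37 in PK19 (1.63%) and 15 in PK25 (0.136%). Calls in the opposite direction numbered 1, 2 and 0 for the higher genes and 2, 3 and 0 for the lower ones. For 20 of the higher genes and 17 of the lower ones the adjusted p was at or above 0.05 in all 3 parkin clones.

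Levels of single genes in the parkin clones were set beside those of V8. C1S averaged 9.79 in PK7, 9.89 in PK19 and 5.26 in PK25, against 4.54 in V22, where V8 had averaged 7.61. GALC averaged 6.84 in PK7, 4.05 in PK19 and 4.23 in PK25, against 4.25 in V22, so that PK7 alone was near the V8 mean of 6.29. TAGLN averaged 5.94 in PK7, 5.63 in PK19 and 6.58 in PK25, against 8.23 in V22 and beside 6.48 in V8. HAS2 went in both directions, with 5.54 in PK7, 9.2 in PK19 and 8.64 in PK25, against 7.75 in V22. The chromosome 6 run had medians of -0.49 in PK7, -0.54 in PK19 and -0.03 in PK25 relative to V22, and the chromosome 19 run -0.62, -0.36 and 0.02. The chromosome 13 run, the lowest in V8, was at 0.03, 0.15 and -0.20 there.

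The V8 arrays lay beyond all 18 other arrays of the study for 31 of the genes called higher and 18 of those called lower. Among the higher ones were ALDH1A3, ALDH1L2, TIGAR and DCN, and among the lower ones MIR382, ZNF558, ZNF266, GAS6, MCAM and GSTM4. Against the 3 V22 arrays of the second series alone, the V8 arrays lay above for 117 of the 119 and below for 81 of the 88. These counts were taken among the called genes only, which were chosen for a large difference in V8. The shares over all genes were not counted, so how unusual the counts are cannot be read from them. Levels between the series were compared in the authors' common table only.

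**Figure D5:**
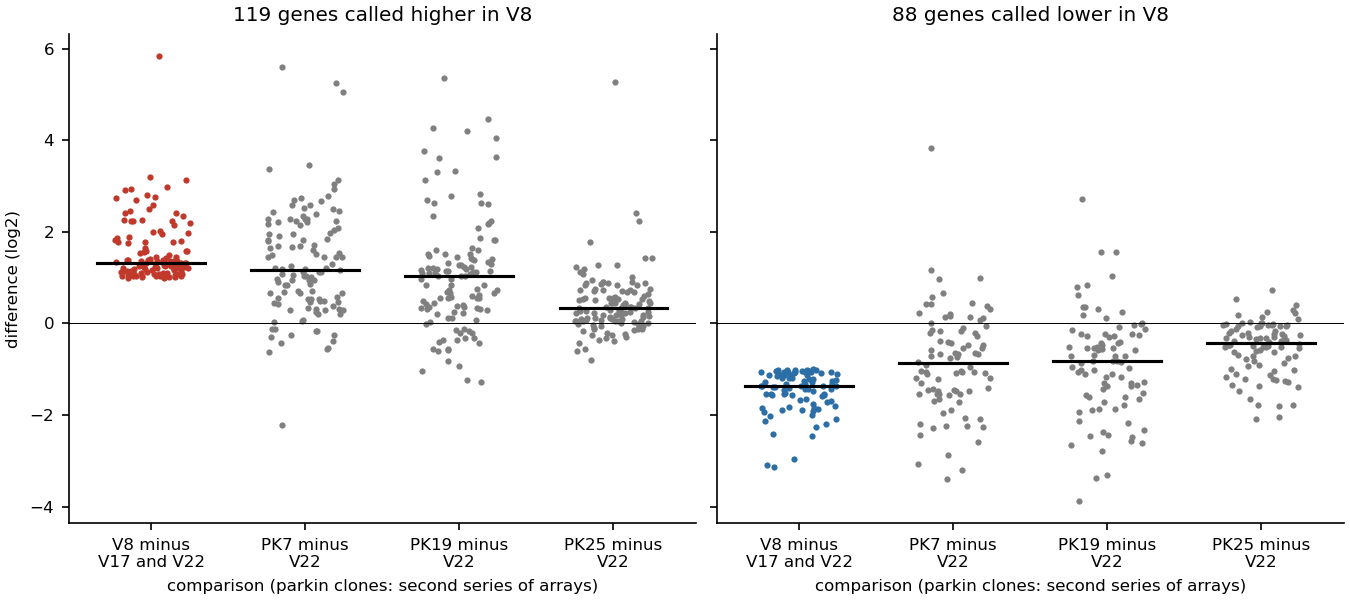
Differences (log2) of the 119 genes called higher (left) and the 88 called lower (right) in V8, for V8 minus the mean of V17 and V22 and for PK7, PK19 and PK25 minus V22 on the arrays of the second series; each point is a gene and the bar is the median. The medians of the higher genes are 1.17 in PK7, 1.04 in PK19 and 0.33 in PK25, and those of the lower genes -0.87, -0.83 and -0.43; the first column of each panel was used to choose the genes.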

How the data were processed

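Affymetrix gene arrays of 21 U-87MG RNA samples were read from the authors' deposited table, in which each value is a linear intensity per probe set; RMA is the method named in the submitters' processing notes, and its version and settings are not given in the sources used here. RMA summarises the probes of a set on a common distribution, so that small shifts on 1 array can be spread over the others. No value was missing and no pair of columns was identical. The precision rests on the number of arrays, 3 per clone.

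Values were taken to log2. limma 3.58.1 (R 4.3.3) was fitted to the 9 arrays of the first array series with 1 mean per clone, and p-values were adjusted by the Benjamini-Hochberg method over all 26947 probe sets; the calls needed an adjusted p under 0.05 and 2-fold. The fit was also run on simulated noise with known changes added, using the spread taken from the finished fit, and that outcome is not reported here. The parkin clones were fitted likewise on the 12 arrays of the second series. Probe sets were named through the platform's annotation, and a check of the symbols by gene ID changed 0 of them. Of the probe sets 19305 had 1 symbol, 1750 several and 5892 none, and 31 of those with 1 symbol had no current gene. Left out were 23 genes, namely Y-linked genes, XIST and the introduced gene, which is not reported here.

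The clones, gene lists and genes were chosen with earlier results of these data known. Named are the 15 highest and 15 lowest called genes with no overlap between V8 and the other arrays, up to 4 called members of each of 40 lists (or the member with the smallest p), the 3 genes with the smallest p between V17 and V22 and the ends of each chromosome run; any other gene was chosen after its values were seen. For the 15 highest and 15 lowest genes the lack of overlap was a condition of the choice, so it is no separate result. The lists share members: of 1006 listed genes, 35 are in more than 1 list. Chromosome order came from RefSeq (GRCh38.p14) with a window of 31 genes, a threshold of 0.25, a minimum run of 20 genes and a mean level above 6. Same-numbered sets of V17 and V22 deviated together (r 0.1257 to 0.2161 over probe sets), while those of V8 did so less (r 0.0591 to 0.1389 with V17 and 0.0701 to 0.0848 with V22). The main fit had no term for the set in any comparison. A block by set was run as an alternative, and V17 against V22 had 0 called probe sets with it. Alternatives were quantile scaling, median centring, a filter on dim probe sets, another variance prior, all 21 arrays in 1 fit, clone means, clone as a random block, a replicate block, a stricter threshold, leaving out each array, and other windows for the runs.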

Additional observations from a re-analysis of the deposited data

Results flagged for a closer look

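Of 70 gene or list values tested over the 6 arrays of V17 and V22, 6 had 1 array that stood off from the other 5 by more than the critical share of the range, where chance gives about 1 in 20. HAS2 was at 7.77 on V22 replicate 3, above 7.39 to 7.52 on the other 5 arrays. IL1B was at 7.66 on V22 replicate 2, below 8.49 to 8.98. MMP3 was at 7.75 on V17 replicate 2, above 6.14 to 6.59. FLRT2 was at 5.97 on V22 replicate 3, below 6.17 to 6.28. RNF130 was at 7.42 on V17 replicate 3, above 7.14 to 7.22. The mean level of the mesenchymal glioblastoma markers was 9.98 on V17 replicate 2, above 9.78 to 9.83. The 5 genes had been chosen with V8 arrays beyond all 6 arrays of V17 and V22, so the V8 arrays lay beyond the array that stood off by that choice. Groups of 3 arrays, such as V8, were not tested this way.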

How the results depend on the processing

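The counts of V8 against V17 and V22 held within 1.5 times under every alternative run. Called probe sets numbered 135 higher and 108 lower; over the alternatives that kept all 9 arrays they were 112 to 141 higher and 96 to 114 lower, and with each array left out in turn 129 to 152 higher and 89 to 120 lower. Leaving out 1 array gave 120 to 143 higher and 89 to 118 lower against V17, and 130 to 171 higher and 89 to 118 lower against V22. V17 against V22 gave 0 called probe sets under each alternative run. With a replicate block by set number the counts were 135 higher and 109 lower, and the block changed no call of a named gene. Same-numbered sets of V8 and V17 deviated together at r 0.0591 to 0.1389, against -0.1019 to 0.0533 for different numbers. For V8 and V22 these ranges were 0.0701 to 0.0848 and -0.088 to 0.0161. Without set 2 of all 3 clones, chosen after seeing the data, they were 116 and 115. The number of chromosome runs was 7 with a window of 51 genes (926 genes) and 8 at a threshold of 0.35 (684 genes). For PK25 against V22, 48 probe sets were called lower, against 26 with all 12 arrays, when set 2 of the parkin clones and V22 replicate 5 were left out; the cause was not tested. A second probe set of ALDH1A3 had the opposite sign (-0.13); the cause was not tested. CHI3L1 (adjusted p = 0.097) and SLC7A11 (0.089) missed the threshold with all 21 arrays in 1 fit, and H2BC12 fell short of 2-fold under quantile scaling (-0.99). Levels below about 4 are near the dimmest of the array, where differences are compressed.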

Other observations

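Lists that the account above leaves out gave the following, where 5.79% of all genes passed higher and 6.66% lower. Of 40 interferon response genes, 7 passed lower in V8 (4 without V8 replicate 3 or V22 replicate 1, 3 without V22 replicate 3), with a median of -0.09, and 1 higher, OAS2 at 0.29, which missed the threshold in 5 of the 9 fits that left out 1 array (2 passed higher without V22 replicate 2); HERC5, which attaches the interferon-induced modifier ISG15, was at 7.63, 7.52 and 7.48 in V8, against 8.21, 8.32 and 8.29 in V17 and 8.33, 8.07 and 8.4 in V22 (-0.73 ± 0.09, adjusted p = 0.00062). Of 18 cholesterol synthesis genes, 3 passed lower (1 without the set 2 array of V8) and none higher (1 without V17 replicate 3), led by INSIG1, which holds back the sterol-responsive factors, at -0.63 ± 0.11. Of 42 nuclear genes of oxidative phosphorylation, NDUFA9 on chromosome 12, a complex I subunit, passed higher at 0.83 (0.42 after its neighbours' running median was subtracted; 2 genes passed higher without V8 replicate 2), and 2 passed lower (1 without V8 replicate 3, 0 without any 1 of the V17 or V22 arrays). Of 42 potassium, sodium and calcium channels, 4 passed higher (1 without V8 replicate 1, 2 without V17 replicate 2 or V22 replicate 1), among them the ATP-gated channel P2RX7 at 0.81, and 7 lower. Of 28 immediate early genes, 5 passed lower (3 without V8 replicate 3), among them EGR1 (-0.56, not without V8 replicate 1 or 3) and the signalling brake SPRY2 (-0.81), which lies in the chromosome 13 run and was at -0.11 after its neighbours' running median was subtracted, and 2 passed higher (1 without V8 replicate 1, V8 replicate 3 or V22 replicate 3).

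Of 30 cancer-testis and germline genes none passed in either direction, with SYCP3 at 0.27 (adjusted p = 0.11) having the smallest p. Of 20 mesenchymal transition factors 3 passed higher (1 without V8 replicate 1) and 3 lower, with RUNX2, a bone lineage factor, at -0.74 and at -0.27 after its neighbours were subtracted. Of 18 proneural and oligodendrocyte markers, 3 passed lower (1 without V8 replicate 1, V8 replicate 3, V17 replicate 1, V22 replicate 1 or V22 replicate 3) and none higher (1 without V8 replicate 2 or V17 replicate 1). Among them were SOX4 at -0.99 (-0.54 after its neighbours were subtracted) and the platelet-derived growth factor receptor PDGFRA at -1.0, which missed the threshold in 6 of the 9 fits that left out 1 array. Of 11 neuronal markers, MAP2 (0.73) and SYT1 (0.34, and -0.15 after its neighbours were subtracted) passed higher, SYT1 missing the threshold in 6 of those 9 fits; of 9 epithelial markers none passed, with KRT19 at -0.14, and of 10 blood markers CD68 passed at -0.30. Of 10 skeletal muscle markers 1 passed, TNNT1 at -0.40. CD68 missed the threshold in all 9 fits that left out 1 array and TNNT1 in 8 of them. Of 22 imprinted genes 4 passed lower and none higher, the 4 becoming 2 without V8 replicate 3, V17 replicate 1 or 3, or V22 replicate 1 or 3; PEG10, at -0.45, missed the threshold in 6 of the 9 fits.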
